A study of Homo sapiens with 6 samples.

Results

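The 9 genes described here encode parts of the machinery that presents peptides on MHC class I molecules. They are the heavy chain genes HLA-B, HLA-C, HLA-E and HLA-F, the light chain gene B2M, the peptide transporter genes TAP1 and TAP2, the tapasin gene TAPBP and the peptide-trimming gene ERAP1. They were chosen by name from the gene column of the deposited count table, 9 of 20532 genes, and all 9 passed the filter on low counts that left 13710 tested genes. The cells were MDA-MB-231 M3, human triple-negative breast cancer cells that form bone metastases, sequenced in 3 siPRMT1 libraries and 3 control libraries. The siPRMT1 cells received a small interfering RNA that targets PRMT1, the arginine methyltransferase gene. The control cells are labelled untreated or control, and the labels do not say whether they were transfected. The comparison asks how transcripts differ once PRMT1 is knocked down.

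MHC class I molecules show peptides from inside the cell to CD8+ T cells. Proteasomes cut proteins into peptides, the TAP1 and TAP2 subunits carry these into the endoplasmic reticulum, ERAP1 trims them, and tapasin bridges the transporter to empty class I molecules until a peptide binds. Each heavy chain needs the light chain beta-2 microglobulin to fold and reach the surface. In many cells interferon-gamma raises these genes together, and loss of class I is a known way in which tumours escape T cells.

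Some regulatory motifs were matched near the start sites of several of these genes, and no motif was matched for all of them. RefSeq promoters (build GRCh38.p14, windows of 300 bases around a start site) were matched by symbol for 8 of the 9 genes, and HLA-E is named only. The stretches below hold the matches lying within 110 bases of the interferon-stimulated response element (ISRE), printed 5′ to 3′ on the strand of the gene, with matches in capitals. TAP1 and ERAP1 have 2 listed starts each, of which the first is shown. The motifs, searched on both strands, were the ISRE core (GAAA and GAAA with any 2 bases between them), a shortened ISRE core GAANNGAAA, the NF-kB consensus, the X2 box core TGACG and the Y box CCAAT. The last pair belong to the module bound by RFX, CREB and NF-Y proteins, on which the class I activator NLRC5 acts. Matches of different motifs can overlap, as the ISRE cores of TAP2 do.
HLA-B, chr6:31357223-31357364, minus strand: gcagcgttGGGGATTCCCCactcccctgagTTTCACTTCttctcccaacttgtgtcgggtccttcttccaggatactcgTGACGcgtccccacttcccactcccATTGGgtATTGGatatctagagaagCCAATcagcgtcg
HLA-C, chr6:31272136-31272292, minus strand: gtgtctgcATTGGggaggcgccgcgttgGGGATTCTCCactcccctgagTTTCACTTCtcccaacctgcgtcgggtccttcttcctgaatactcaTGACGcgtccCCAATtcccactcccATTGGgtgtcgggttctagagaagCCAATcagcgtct
HLA-F, chr6:29723270-29723389, plus strand: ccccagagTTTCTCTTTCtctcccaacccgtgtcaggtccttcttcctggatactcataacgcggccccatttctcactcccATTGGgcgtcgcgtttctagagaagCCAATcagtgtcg
B2M, chr15:44711365-44711480, plus strand: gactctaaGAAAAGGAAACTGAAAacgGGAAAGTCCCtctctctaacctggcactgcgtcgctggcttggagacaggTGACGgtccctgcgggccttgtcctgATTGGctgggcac
TAP1, chr6:32853759-32853846, minus strand: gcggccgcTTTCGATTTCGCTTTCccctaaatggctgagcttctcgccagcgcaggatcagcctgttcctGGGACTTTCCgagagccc
TAP2, chr6:32838762-32838810, minus strand: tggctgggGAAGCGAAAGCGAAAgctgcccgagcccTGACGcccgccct
TAPBP, chr6:33314075-33314142, minus strand: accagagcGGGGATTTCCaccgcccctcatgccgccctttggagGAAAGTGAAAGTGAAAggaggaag
ERAP1, chr5:96807926-96808026, minus strand: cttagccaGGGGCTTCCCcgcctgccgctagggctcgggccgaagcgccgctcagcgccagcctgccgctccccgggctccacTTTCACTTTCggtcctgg

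The full ISRE core was found for HLA-F, B2M, TAP1, TAP2, TAPBP and ERAP1, and in 3.57% of all 35116 promoters of that length. The HLA-B and HLA-C promoters held the shortened core, found in 7.66% of all promoters. An NF-kB match lay in the promoters of HLA-B, HLA-C, B2M, TAP1, TAPBP and ERAP1, and in 5.91% of all. The X2 box core (24.6% of all) and the Y box (34.6% of all) stood together for HLA-B, HLA-C and B2M, a pairing held by 8.69% of all promoters. These matches are letters in a window and not measured binding.

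Total counts ran from 16968563 to 20545995 in siPRMT1 libraries and from 17921097 to 19645127 in control libraries. PRMT1 lay between 11.9 and 12.0 CPM in siPRMT1 libraries, against 144 to 149 CPM in control libraries. Its log2 fold change was -3.62 (SE 0.0451). CPM, the usual depth-scaled count, is scaled here by TMM, which sets the bulk of genes level between libraries. Log2 fold changes are siPRMT1 minus control. Of the mesenchymal markers of the line, VIM was at 2368 ± 9.74 CPM in siPRMT1 cells and 1817 ± 13.4 CPM in control cells (SD, n = 3 each) and AXL at 589.7 ± 4.85 CPM in siPRMT1 cells and 460.0 ± 7.39 CPM in control cells. CD44 was at 703 ± 9.88 CPM in siPRMT1 cells and 1156 ± 6.996 CPM in control cells, and FN1 at 141 ± 0.721 CPM in siPRMT1 cells and 430.5 ± 2.27 CPM in control cells. There was hardly any ESR1 (5 counts over all libraries) or PGR (1 count). The epithelial marker EPCAM was at 21.5 ± 1.55 CPM in siPRMT1 cells and 12.4 ± 0.208 CPM in control cells. Another epithelial marker, CDH1, had few counts (118 over all libraries). It was at 0.950 ± 0.311 CPM in siPRMT1 cells and 1.12 ± 0.289 CPM in control cells. ERBB2 was at 72.9 ± 2.57 CPM in siPRMT1 cells and 61.3 ± 1.97 CPM in control cells. Across the transcriptome 12243 genes passed an adjusted p of 0.05, which is 89.3% of those tested, with 44.3% higher and 45% lower. Mitochondrial genes took 8.64% to 8.74% of counts in siPRMT1 libraries and at most 5.09% in control libraries, and the part of this in the results was not tested. The labels call the replicates biological, but whether they came from separate transfections is not stated. A p-value therefore covers the spread among the libraries, which could be technical.

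Of the 9 genes, 7 rose and 2 fell in siPRMT1 cells by edgeR's quasi-likelihood test, and none was left uncalled. With 89.3% of all tested genes called, passing the test says little by itself, so the sizes carry the description. HLA-B, HLA-C, HLA-E, HLA-F and TAPBP were each between 1.46-fold and 1.67-fold higher. B2M (1.04-fold) and TAP1 (1.09-fold) were almost level, TAP2 was 1.43-fold lower and ERAP1 2.09-fold lower. The median log2 fold change of the 9 genes was 0.55, beside -0.0082 over all tested genes. The quartiles of all tested genes were -0.83 and 0.71, so changes of this size were common. HLA-B, HLA-E, HLA-F, B2M, TAP1 and TAP2 lay between these quartiles. HLA-C (0.72) and TAPBP (0.74) lay just above the upper one, and ERAP1 (-1.06) below the lower one. Only ERAP1 passed a 2-fold change, which 21% of tested genes did in the downward direction and 15.3% upward. The 2 groups did not overlap in CPM for any of the 9 genes, as for 89.1% of tested genes (44.1% higher, 45% lower). All these levels are shares of a library, and in bulk RNA fewer cells with a transcript and less of it per cell cannot be told apart. When library size alone set the scale, the median of all genes moved to -0.33. Then 5 of the 9 rose and 4 fell, with 88.8% of all tested genes called, 33.5% higher and 55.4% lower.

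**Figure D1:**
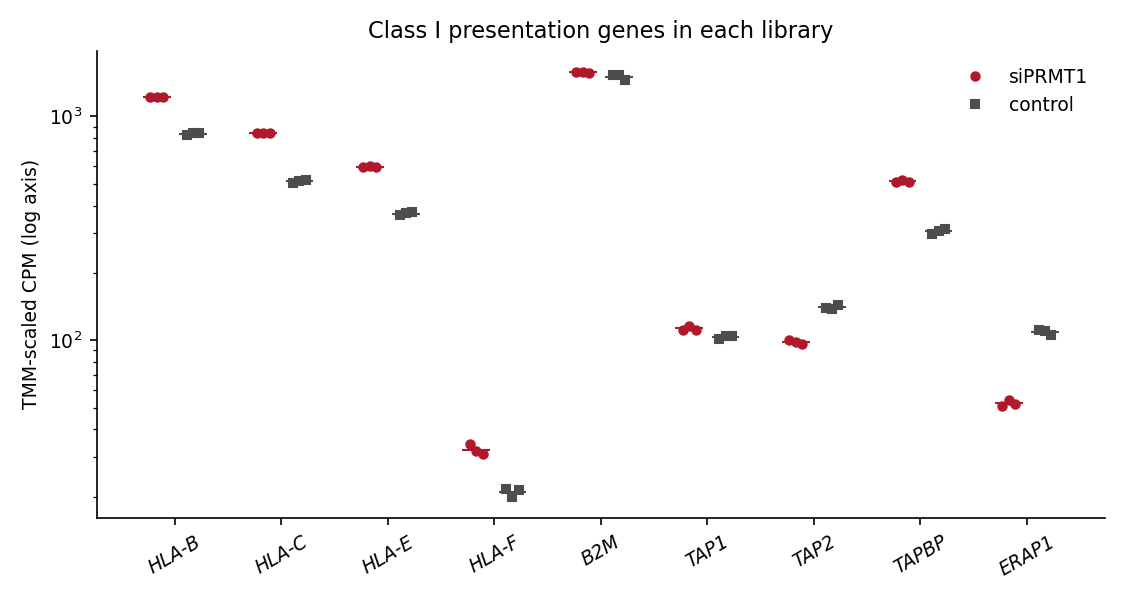
TMM-scaled CPM on a log axis for the 9 genes, with 3 siPRMT1 libraries (circles) left of 3 control libraries (squares) and a bar at each mean. The libraries of the 2 groups do not overlap for any of the 9 genes; ERAP1 and TAP2 are lower in siPRMT1 libraries and the other genes higher, B2M and TAP1 by little.

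HLA-B (ENSG00000234745; hg38, chromosome 6, 31353872 to 31366856, minus strand) is one of the classical heavy chains, which show peptides to T cells. Its level was 1223.29, 1223.73 and 1224.42 CPM in siPRMT1 libraries, against 828, 845 and 841 CPM in control libraries. The siPRMT1 libraries were all above the control libraries and nearly equal to each other. The log2 fold change was 0.55 (SE 0.0156, adjusted p = 6.68e-139, edgeR quasi-likelihood test with Benjamini-Hochberg adjustment, as in all adjusted p below). HLA-C (ENSG00000204525; chromosome 6, 31268749 to 31272086, minus strand), the other classical heavy chain among the 9 genes and a main ligand of receptors on natural killer cells, had 844, 845 and 845 CPM in siPRMT1 libraries, against 505, 512 and 519 CPM in control libraries. The groups did not overlap, and the log2 fold change was 0.72 (SE 0.0166, adjusted p = 1.32e-175).

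HLA-E (ENSG00000204592; chromosome 6, 30489509 to 30494194, plus strand) is a non-classical heavy chain that shows leader peptides of other class I chains to natural killer cells. It was at 596, 600.4 and 596 CPM in siPRMT1 libraries, against 363, 369 and 372 CPM in control libraries. Every siPRMT1 library was above every control library, with a log2 fold change of 0.70 (SE 0.0177, adjusted p = 2.21e-159). HLA-F (ENSG00000204642; chromosome 6, 29722775 to 29738528, plus strand), a non-classical chain that can reach the surface without peptide, was the least abundant of the 4 heavy chains. It had 34.2, 31.9 and 31.01 CPM in siPRMT1 libraries, against 21.7, 19.99 and 21.4 CPM in control libraries, from 400 to 587 reads per library. In the annotation HLA-F overlaps 3 genes on the opposite strand, HLA-B overlaps 3 genes and TAPBP overlaps 1. None of these overlapping genes is in the count table. The groups of HLA-F were apart too, with a log2 fold change of 0.62 (SE 0.0544, adjusted p = 5.49e-27).

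With TMM scaling the 4 heavy chains moved by similar amounts, and their proportions shifted little. Shares and sums here cover these 4 genes and not all class I heavy chains. HLA-B made up 45.4% ± 0.0437 of their summed counts in siPRMT1 cells and 48.2% ± 0.238 in control cells (SD, n = 3 each). HLA-C made up 31.3% ± 0.0336 in siPRMT1 cells and 29.5% ± 0.145 in control cells, and HLA-E 22.1% ± 0.0751 in siPRMT1 cells and 21.2% ± 0.0700 in control cells. For these 3 genes the groups did not overlap. The share of HLA-F was 1.20% ± 0.0621 in siPRMT1 cells and 1.21% ± 0.0593 in control cells, a difference smaller than the spread between replicates. The heavy chain genes are alike in sequence, and HLA-B and HLA-C are among the genes that vary most between people. Exact runs of 100 bases shared with transcripts of another gene made up 0% of the annotated HLA-B and HLA-F transcripts, 0.277% of HLA-C and 0.612% of HLA-E. The alleles of this cell line can differ from the reference, and how many of their reads were lost or assigned to a neighbour was not tested.

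B2M (ENSG00000166710; chromosome 15, 44711358 to 44718851, plus strand), the light chain shared by all class I molecules, had the highest counts of the 9 genes. Its level was 1580.45, 1578 and 1568 CPM in siPRMT1 libraries, against 1536, 1528 and 1460.0 CPM in control libraries. The groups were apart by a small margin, and the log2 fold change was 0.063 (SE 0.0152, adjusted p = 4.96e-05). This direction is not stable to the scaling: with library size alone B2M was lower (-0.25), and with upper-quartile scaling the change was 0.016 and did not pass (adjusted p = 0.314). Summed HLA-B, HLA-C, HLA-E and HLA-F counts were 1.71, 1.71 and 1.72 for each B2M count in siPRMT1 libraries, against 1.12, 1.14 and 1.20 in control libraries. The groups did not overlap in this ratio, which needs no scaling between libraries. It does carry any trend with GC content, in which B2M and the heavy chains differ.

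The 5 genes whose profile over the 6 libraries lay nearest to that of B2M, by root mean square difference of centred log2 CPM among 9694 candidates, were PTDSS1 (0.0112), KHDRBS1 (0.0129), PPCS (0.0137), ZFAND1 (0.0164) and ING5 (0.0164). Their log2 fold changes lay between 0.044 and 0.072, against 0.063 for B2M. The profiles used for the choice include the difference between the groups, so alike fold changes follow from the choice itself.

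TAP1 and TAP2 form the transporter together, and with TMM scaling TAP1 rose while TAP2 fell. TAP1 (ENSG00000168394; chromosome 6, 32845209 to 32853816, minus strand) had 112, 116 and 111 CPM in siPRMT1 libraries, against 101, 105 and 105 CPM in control libraries. The log2 fold change was 0.13 (SE 0.0288, adjusted p = 9.45e-06), but -0.19 with library size alone. TAP2 (ENSG00000204267; chromosome 6, 32821833 to 32838682, minus strand) had 100.007, 98.2 and 95.7 CPM in siPRMT1 libraries, against 139, 138 and 144 CPM in control libraries, all siPRMT1 libraries being lower. The log2 fold change of -0.52 (SE 0.0280) had an adjusted p = 4.51e-59.

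Both transporter genes overlap other listed genes. TAP1 overlaps PSMB9, an immunoproteasome subunit gene on the opposite strand, which rose by 1.10 on the log2 scale. No source used here gives the strand setting of the counting, so their reads in the overlap cannot be told apart. TAP2 overlaps ENSG00000250264 on its own strand, and 34.7% of the runs of 100 bases in the TAP2 transcript also occur in transcripts of another gene. ENSG00000250264 had 696 to 861 counts in siPRMT1 libraries and 1279 to 1478 in control libraries, and its log2 fold change of -0.51 was close to that of TAP2. The level of TAP2 is therefore uncertain.

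TAPBP (ENSG00000231925; chromosome 6, 33299694 to 33314049, minus strand), which encodes tapasin, had the highest fold change of the 9 genes. It was at 509.9, 518 and 509 CPM in siPRMT1 libraries, against 299, 308 and 316 CPM in control libraries. The groups were far apart, with a log2 fold change of 0.74 (SE 0.0157, adjusted p = 4.95e-190). ERAP1 (ENSG00000164307; chromosome 5, 96760810 to 96807922, minus strand), the aminopeptidase that trims peptides to the length class I molecules hold, had 50.7, 53.9 and 51.9 CPM in siPRMT1 libraries, against 112, 110.1 and 106 CPM in control libraries. All siPRMT1 libraries lay below the control libraries, the log2 fold change being -1.06 (SE 0.0340, adjusted p = 6.69e-122). ERAP1 overlaps CAST, a calpain inhibitor gene on the opposite strand, which had a log2 fold change of -0.78, and their reads in the overlap cannot be told apart either.

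Per kilobase of the deposited gene length, B2M stood highest, at 505 ± 2.17 CPM per kilobase in siPRMT1 cells and 483 ± 13.5 in control cells (SD, n = 3 each). HLA-C (337 ± 0.282 in siPRMT1 cells, 204 ± 2.89 in control cells), HLA-B (265 ± 0.124 in siPRMT1 cells, 181 ± 1.89 in control cells) and HLA-E (204 ± 0.850 in siPRMT1 cells, 126 ± 1.69 in control cells) followed in both groups. Next came TAPBP (77.1 ± 0.774 in siPRMT1 cells, 46.3 ± 1.27 in control cells) and TAP1 (23.9 ± 0.570 in siPRMT1 cells, 21.8 ± 0.412 in control cells). These 6 genes differed from their neighbours in the order beyond the replicate spread. TAP2, HLA-F and ERAP1 closed the order in siPRMT1 cells, at 9.46 ± 0.208, 7.51 ± 0.387 and 6.57 ± 0.200. In control cells ERAP1 (13.7 ± 0.363) and TAP2 (13.6 ± 0.303) lay within their spread of each other and above HLA-F (4.87 ± 0.209). With the length of the annotated canonical transcript, HLA-B stood above HLA-C in both groups, and HLA-F above TAP2 in siPRMT1 cells.

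Ratios of counts within a library also differ in the GC content of their members, B2M having 39.1% GC and the heavy chains 55.1% to 60.1%. The log2 ratio to B2M was higher in siPRMT1 libraries by 0.48 for HLA-B, 0.66 for HLA-C, 0.64 for HLA-E, 0.56 for HLA-F and 0.67 for TAPBP. It was lower for TAP2 (difference -0.58) and for ERAP1 (difference -1.13). For these 7 genes the ratios of the 3 siPRMT1 libraries did not overlap those of the 3 control libraries. The share of all genes whose ratio to B2M does so was not computed, but 89.1% of tested genes did not overlap in CPM. Each of the 7 ratios gave p = 0.1 in a two-sided exact permutation test over samples, the smallest that 3 against 3 allows. The adjusted p was 0.114 over the 8 ratios, so none could pass a threshold of 0.05. For TAP1 the log2 ratio to B2M was -3.80 ± 0.0324 in siPRMT1 cells and -3.86 ± 0.0612 in control cells, which overlapped (difference 0.065; exact permutation p = 0.3).

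**Figure D2:**
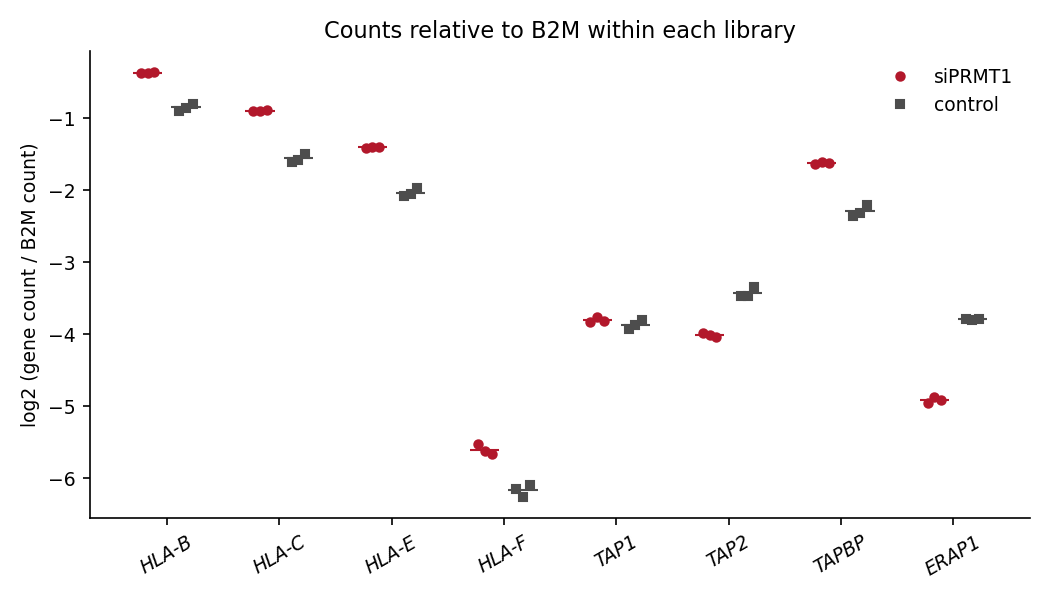
The log2 ratio of each gene's count to the B2M count of the same library, with 3 siPRMT1 libraries (circles) left of 3 control libraries (squares) and a bar at each mean. The 4 heavy chains and TAPBP are higher in siPRMT1 libraries, TAP2 and ERAP1 lower, and TAP1 overlaps.

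Over the transcriptome, GC-rich transcripts were higher and GC-poor ones lower in siPRMT1 cells, and the 9 genes differ in GC content. Among 2094 genes whose canonical transcript has 55% to 60% GC the median log2 fold change was 0.61 (quartiles 0.15 and 1.04), and among 2256 genes under 40% it was -1.02 (quartiles -1.66 and -0.40). HLA-B (58.9% GC), HLA-E (55.1%), HLA-F (57.8%) and TAPBP (57.1%) lay between the quartiles of the 55% to 60% bin, and TAP1 (57.4%) just under its lower quartile. HLA-C (60.1%) lay between the quartiles of genes of 60% or more (0.54 and 1.29). ERAP1 (43.3%) lay between the quartiles of the 40% to 45% bin (-1.22 and -0.035), and TAP2 (48.9%) between those of the 45% to 50% bin (-0.87 and 0.40). B2M, at 39.1% GC, lay above the upper quartile of its bin.

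**Figure D3:**
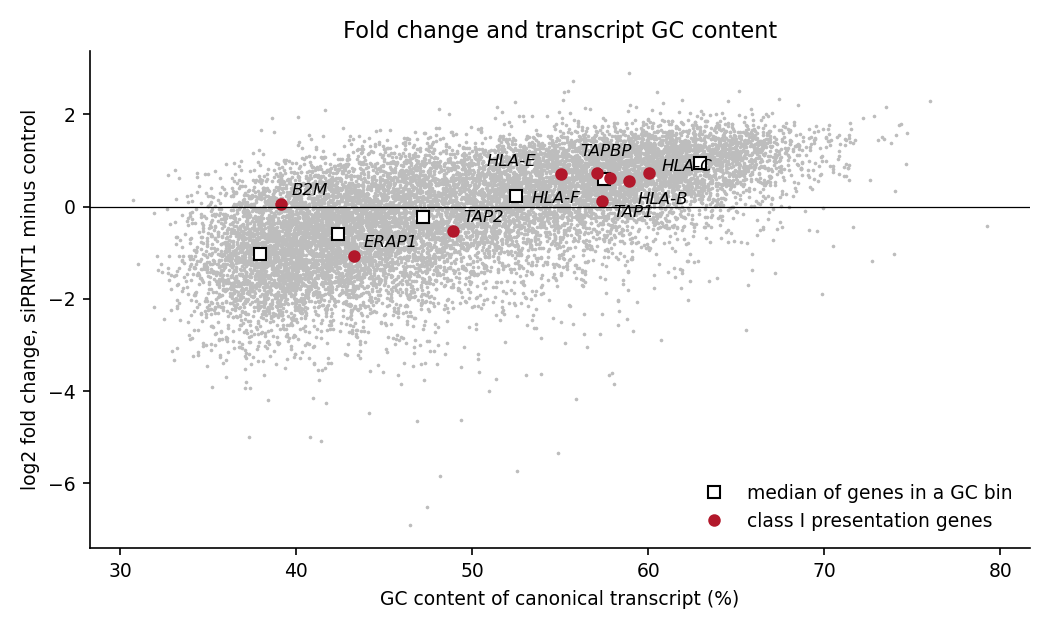
Log2 fold change, siPRMT1 minus control, against the GC content of the canonical transcript for the tested genes (grey), with the 9 class I presentation genes in red and open squares at the median of each GC bin. B2M lies above the median of its bin, -1.02, and TAP1 below that of its bin, 0.61.

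Taking out the trend with GC content and length, by a correction fitted over all genes, turned the sign of several of the 9 genes. HLA-B was then at -0.47 (SE 0.0073, adjusted p = 3.89e-45), HLA-C at -0.35 and HLA-F at -0.35, and TAP1 at -0.39. The fitted trend was taken as fixed, so standard errors and p-values after the correction leave out its uncertainty. TAP2 was at 0.035 and did not pass (adjusted p = 0.234). HLA-E (0.29), TAPBP (0.41), B2M (0.15) and ERAP1 (-0.28) kept their direction and passed. Set against B2M at 0.15, the corrected values of HLA-B, HLA-C, HLA-F and TAP1 lay below it and those of HLA-E and TAPBP above it. The direction of the ratio to B2M thus turned for HLA-B, HLA-C and HLA-F. It turned for TAP1 too, whose uncorrected difference of 0.065 was small, with groups that overlapped. Under the correction 3 of the 9 rose and 5 fell, with a median of -0.28, while 80.5% of all genes in that fit were called, 44.9% higher and 35.6% lower, and their median was 0.068. Whether the trend with composition is technical or part of the cells' response was not tested.

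HLA-E, TAPBP and ERAP1 were called in their direction under all 17 alternatives to the scaling, tool, filter, design and samples. The share of all tested genes called in 1 direction under all 17 was not computed. In single settings 89.3% of tested genes were called with TMM scaling, 88.8% with library size alone and 80.5% after the correction. HLA-E ranged from 0.29 to 0.71, TAPBP from 0.41 to 0.76, and ERAP1 from -1.38 to -0.28.

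**Figure D4:**
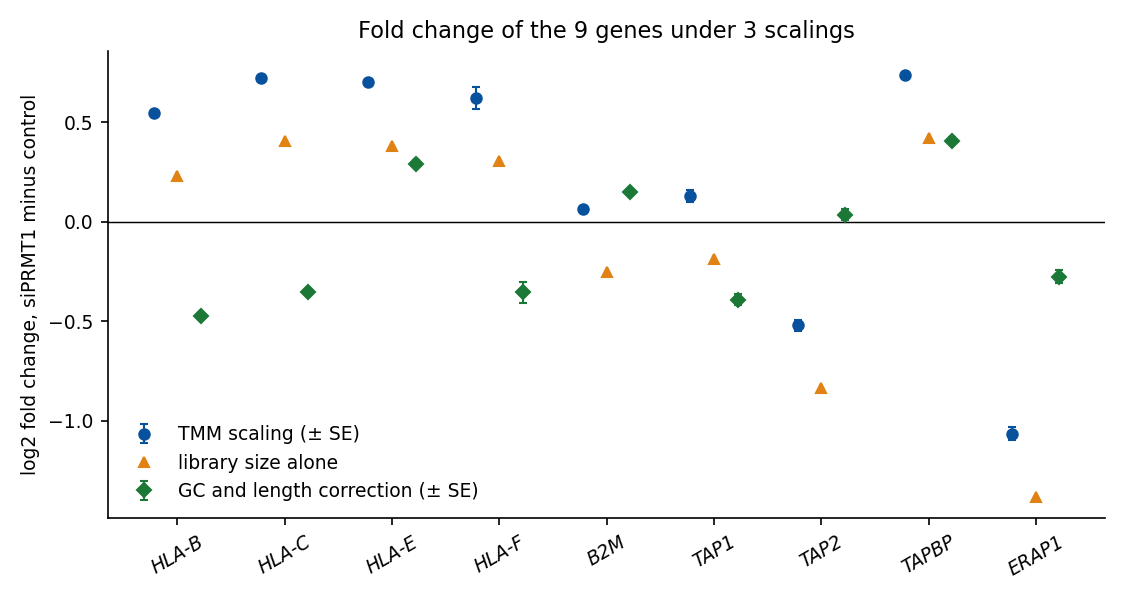
Log2 fold change, siPRMT1 minus control, of the 9 genes with TMM scaling (circles), library size alone (triangles) and the correction for GC content and length (diamonds), with error bars of 1 SE for the TMM and corrected values. HLA-E and TAPBP are above 0 and ERAP1 below 0 under all 3, while the other 6 genes change sign under at least 1 of them.

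For the lists that follow, the shares over all tested genes were 44.3% higher and 45% lower with TMM scaling, 44.9% higher and 35.6% lower after the correction, and 33.5% higher and 55.4% lower with library size alone. Of 11 genes for partners of the loading complex and for peptidases of the endoplasmic reticulum, 5 rose and 6 fell, close to those shares, with a median log2 fold change of -0.092 (0.15 after the GC and length correction). CALR, which encodes the chaperone calreticulin of the loading complex, rose to 1579 ± 14.4 CPM in siPRMT1 cells, against 975 ± 3.55 CPM in control cells (0.70, corrected 0.15). CANX, the gene of the membrane chaperone calnexin, fell to 479.7 ± 1.21 CPM in siPRMT1 cells, against 1631 ± 10.1 CPM in control cells (-1.77, corrected -0.77). PDIA3, whose product binds tapasin, fell by 0.092 on the log2 scale but was higher after the correction (0.50). TAPBPL, the gene of a tapasin relative that edits peptides, rose by 0.85 (-0.069 corrected, which did not pass).

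Among the same 11 genes LNPEP, an endosomal trimming peptidase, fell (-1.94, corrected -0.41). PRKCSH, a subunit of the glucosidase that trims sugars of new glycoproteins, rose (1.29, corrected 0.39). UGGT1, which marks misfolded glycoproteins for another round with the chaperones and also checks peptide loading, fell (-1.28, corrected -0.22), and UGGT2 fell (-0.96) but was at 0.17 after the correction, which did not pass.

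Genes that supply peptides were mostly higher. Of 17 genes for proteasome catalytic subunits, activators and cytosolic peptidases, 13 rose and 4 fell, beside 44.3% and 45% of all tested genes, with a median of 0.89. After the correction 14 rose and 3 fell (median 0.37), beside 44.9% and 35.6% of all. Under each of TMM scaling, the correction and library size alone, the same 10 rose. The share of all tested genes that rose under all 3 was not computed. The immunoproteasome gene PSMB8 was at 169 ± 0.817 CPM in siPRMT1 cells and 72.9 ± 1.53 CPM in control cells (1.21, corrected 0.33). Of the other immunoproteasome genes PSMB9 rose (1.10, corrected 0.37), and PSMB10 rose by 0.89 but was at -0.40 after the correction. PSMB7, a standard catalytic subunit gene, rose by 1.16 (0.60 corrected). The activator genes PSME1 (1.24, corrected 0.57) and PSME2 (1.15, corrected 0.55) also rose. TPP2, a cytosolic peptidase of long peptides, fell (-1.26, corrected -0.18).

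Among 16 genes of transcription factors that act on class I promoters, 11 were lower and 5 higher, beside 45% and 44.3% of all tested genes, and the median was -0.72 (-0.065 corrected, with 8 lower and 6 higher, beside 35.6% and 44.9%). NLRC5, the class I activator, had 34.1 ± 1.17 CPM in siPRMT1 cells and 25.5 ± 1.97 CPM in control cells (0.41, corrected 0.46), but with library size alone its change of 0.097 did not pass (adjusted p = 0.0675). IRF1, which binds the ISRE, rose to 61.4 ± 4.06 CPM in siPRMT1 cells, against 41.4 ± 0.515 CPM in control cells (0.57, corrected 0.54).

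Of the NF-kB subunit genes RELA rose (0.77, corrected 0.13) and NFKB1 fell (-0.78, corrected -0.52). IRF2, which also binds the ISRE, fell (-0.66, corrected -0.52). Of the X box binders RFXANK rose (1.24, corrected 0.094), RFX5 fell (-0.19, corrected 0.027), CREB1 fell (-1.24) but was at 0.37 after the correction, and ATF1 fell (-1.74, corrected -0.996). Of the Y box binders NFYA fell (-0.90, corrected -0.14), NFYB fell (-0.59, corrected 0.49) and NFYC rose (0.38, corrected 0.0051). The corrected values of RFX5 and NFYC did not pass. The coactivator genes EP300 (-1.98, corrected -1.28) and CREBBP (-0.87, corrected -0.52) fell.

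Interferon receptor and signalling genes were lower in 11 and higher in 4 of 16 cases, beside 45% and 44.3% of all tested genes, the median being -0.42. After the correction these were 7 and 4, beside 35.6% and 44.9% of all, and the median was -0.14. PTPN11, the gene of a phosphatase in growth factor signalling, fell to 42.1 ± 0.295 CPM in siPRMT1 cells, against 240.3 ± 5.43 CPM in control cells (-2.51, corrected -1.51). The interferon receptor gene IFNAR1 fell (-0.86, corrected 0.15). IRF9, a transcription factor of the interferon response, rose (0.93, corrected 0.21), as did SOCS1, an inhibitor of the pathway (1.27, corrected -0.079). The corrected value of SOCS1 did not pass. SOCS3, another inhibitor, did not pass with TMM scaling (-0.019, adjusted p = 0.783) and was at -0.67 after the correction.

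Of 15 genes of class I-like molecules, 13 were tested, of which 9 rose and 3 fell, beside 44.3% and 45% of all tested genes (median 0.61, corrected -0.0010, with 5 higher and 4 lower, beside 44.9% and 35.6% of all). RAET1G, a stress ligand of natural killer cells, rose (1.68, corrected 0.77). ULBP3, another such ligand, rose (0.73, corrected 1.06), as did MICA (0.68, corrected -0.054, which did not pass). HLA-G rose by 0.77 but was at -0.39 after the correction, as for HLA-B, HLA-C and HLA-F. HFE, a class I-like regulator of iron uptake that also pairs with beta-2 microglobulin, fell (-1.15, corrected -0.28).

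Of 14 genes known to remove or repress class I molecules 10 rose and 4 fell, beside 44.3% and 45% of all tested genes (median 0.20, corrected 0.33; -0.12 with library size alone, with 5 higher and 8 lower, beside 33.5% and 55.4% of all). MARCHF9, a ubiquitin ligase that takes class I molecules from the surface, rose (1.32, corrected 0.78). PCGF1, a Polycomb gene, rose (0.91, corrected 0.25), and SUZ12, a core gene of the other Polycomb complex, fell (-1.47, corrected -0.42). NBR1, an autophagy receptor that delivers class I molecules to the lysosome, fell (-0.88, corrected -0.25), and TRAF3, a regulator of NF-kB, fell (-0.80, corrected -0.46).

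**Figure D5:**
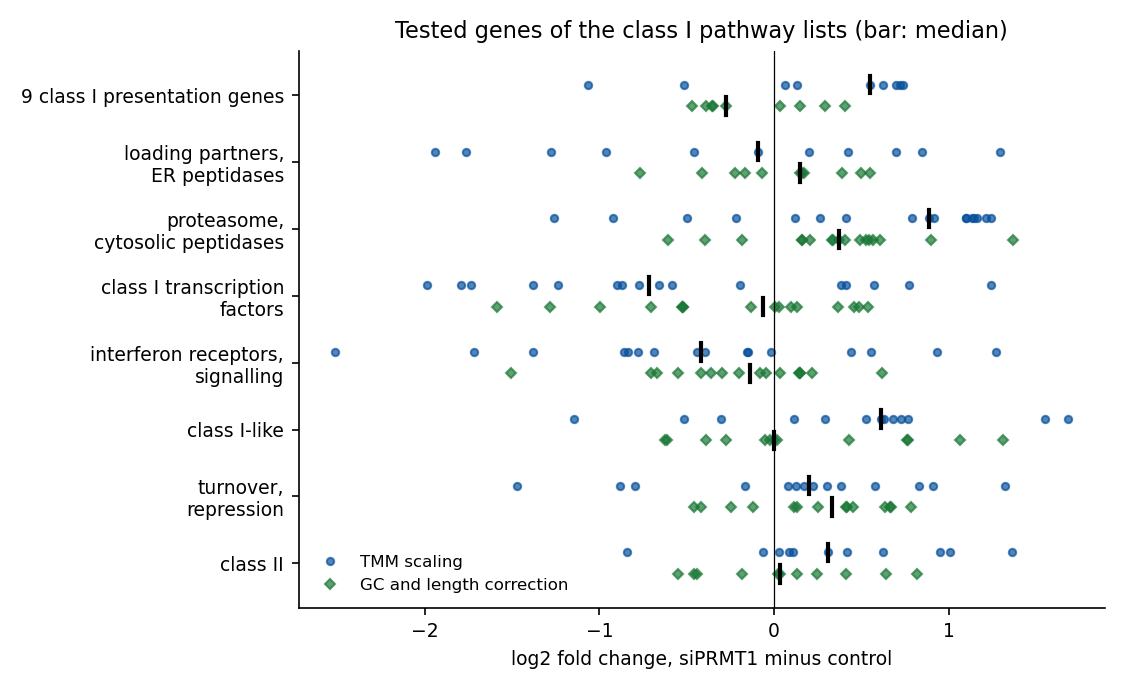
Log2 fold change, siPRMT1 minus control, of each tested gene of the class I pathway lists, with TMM scaling (circles) and after the GC and length correction (diamonds), and a bar at each median. The proteasome list has the highest median under both, 0.89 and 0.37, and the median of the 9 class I presentation genes is 0.55 and -0.28.

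Genes of class II presentation, which serves CD4+ T cells, were measurable in these cells. Of 12 genes 11 were tested, of which 6 rose and 2 fell, beside 44.3% and 45% of all tested genes (median 0.31). After the correction 5 were higher and 4 lower, beside 44.9% and 35.6% of all (median 0.036). The median was -0.0100 with library size alone. CD74, the invariant chain, had 797 ± 4.18 CPM in siPRMT1 cells and 413 ± 14.2 CPM in control cells (0.95, corrected 0.036). IFI30 (1.36, corrected 0.41), a thiol reductase of antigen processing, and HLA-DMA (1.01, corrected 0.25), which helps load class II molecules, rose. HLA-DRB1 rose by 0.42 but was at -0.46 after the correction, and CTSS, a protease of the pathway, fell (-0.84, corrected 0.020). The other that fell, HLA-DRA (-0.066, adjusted p = 0.0392), overlapped between the groups. It was at -0.44 after the correction and at -0.38 with library size alone, and passed under both. Leaving out control replicate 1 or siPRMT1 replicate 2 or 3, RLE scaling and DESeq2 each left 1 class II gene lower. CIITA, the class II activator, did not pass with TMM scaling (0.030, adjusted p = 0.501), and was at 0.64 after the correction and at -0.29 with library size alone. The corrected value of CTSS did not pass.

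Markers of leukocytes, which carry much class I, summed to 26.1 to 27.5 CPM in siPRMT1 libraries and 15.0 to 16.4 CPM in control libraries over 12 markers. Of these, 4 were tested and 2 rose, CSF1R (0.92, corrected 0.64) and CD14 (0.94, corrected -0.23). The defining marker PTPRC had 11 counts over all 6 libraries, CD3E 2 and MS4A1 0. The corrected value of CD14 did not pass, while CD8A did not pass with TMM scaling (-0.035, adjusted p = 0.852) and was lower after the correction (-0.42), and the part of these markers in the results was not tested.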

How the data were processed

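RNA from 6 samples, 3 siPRMT1 and 3 control, was sequenced with a stranded mRNA kit, per the labels' protocols. The authors deposited raw counts: whole reads for each of 20532 genes, beside gene lengths in bases. The submitters' processing notes list Subread 1.5.1 with featureCounts, edgeR 3.40.2, STAR 2.7.6a, fastp 0.23.2 and build hg38, without their roles. No source used here gives the strand setting, the annotation release or the handling of duplicate reads. Total counts were 16968563 to 20545995 per sample, and the largest counts have the smallest relative error.

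The comparison ran in edgeR 4.0.16 under R 4.3.3 (filterByExpr, TMM, glmQLFit, glmQLFTest, Benjamini-Hochberg adjustment over 13710 genes, threshold 0.05). Standard errors were derived from each gene's F statistic and log2 fold change. The common dispersion of 9.77e-05 is the lowest value the search allows. Replicate pairs differed by more than sampling noise (chi-square over degrees of freedom 1.05 to 1.38), and all 6 samples were kept. The excess was small among siPRMT1 libraries (1.05 to 1.10), and it does not tell biological from technical replicates.

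GC content and length came from canonical transcripts of GENCODE release 44 (13694 tested genes). The correction took each sample's trend with both properties, fitted by splines of 5 degrees of freedom, as an offset. Motifs and figures used Python 3.11.15. Ratios to B2M had 0.5 added to each count.

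Alternatives were RLE, upper-quartile and library-size scaling, DESeq2 1.42.0, limma-voom (limma 3.58.1), robust edgeR, a block for the replicate number, no filter, a filter of 1 CPM in 3 or more samples, the correction with and without the block, and leaving out each sample. The fit was tested on simulated counts with few changed genes, a higher dispersion than estimated here and no GC trend. That test therefore does not cover the many called genes or the GC trend of these data. The 9 genes and the 8 lists were chosen with earlier results of these data known. Named list genes are up to 5 per list with the largest fold change among those called with at least 5 CPM, plus loading complex and transcription factor genes at that level. The 5 nearest profiles to B2M were taken among non-member genes with at least 10 CPM and an established symbol. SOCS3, CIITA, HLA-DRA, CD8A, PSMB10 and the low leukocyte markers were named after their values were seen. So were PSMB9, CAST and ENSG00000250264, for their overlap. Some genes of the lists are counted but not reported here by name.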

Additional observations from a re-analysis of the deposited data

How the results depend on the processing

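The count of genes past the threshold was 12243, and from 11027 to 12532 under the alternatives. With library size alone B2M (-0.25) and TAP1 (-0.19) turned lower, as did the median of the turnover list (-0.12) and of the class II list (-0.0100), and with upper-quartile scaling B2M (0.016) no longer passed; these scalings shift all genes together. With the GC and length correction HLA-B (-0.47), HLA-C (-0.35), HLA-F (-0.35), TAP1 (-0.39) and TAP2 (0.035) changed sign, and so did the medians of the loading partner list (0.15), the class I-like list (-0.0010) and the leukocyte markers (-0.17). The cause was not tested. Together with the replicate block the corrected values were -0.47 (HLA-B), -0.35 (HLA-C), -0.35 (HLA-F), -0.39 (TAP1) and 0.036 (TAP2), with medians of 0.15 (loading partners) and -0.16 (leukocyte markers).

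The replicate block alone gave 12219 calls and changed no call of the 9 genes. Deviations of samples with the same number correlated at -0.010, 0.037 and 0.0015, which shows no pairing by number. Most of the spread between replicates was sampling noise, so this check cannot exclude a pairing. Leaving out 1 sample kept every call of the 9 genes and the sign of every ratio to B2M, with B2M between 0.041 and 0.076 and TAP1 between 0.11 and 0.14. HLA-DRA was lost without control replicate 1 or without siPRMT1 replicate 2 or 3, which left 1 class II gene lower instead of 2. HLA-F, with 400 to 587 reads per library, is the least precise of the 9 genes.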
